A study of Penicillium oxalicum with 9 samples.

Results

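A set of 49 genes of the filamentous fungus Penicillium oxalicum lay on the same side of the wild type in a strain without crzA and in a strain with crzA put back. The file held 9860 genes. The members were chosen by their measured values. Mean log2(FPKM + 1) had to differ from the wild type by at least 1, which is 2-fold on this scale, in the same direction in both strains. All 3 wild-type values also had to lie above, or below, the other 6 values. Genes in 8 stretches of locus numbers (291 genes) were left out. The fold conditions alone held for 138 genes, of which 126 lay outside those stretches, and 49 of the 126 also met the condition on order. There were 18 members higher and 31 lower than the wild type. FPKM counts fragments per kilobase of a gene relative to the total of its library, and adding 1 before taking logarithms shrinks the changes of low genes.

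The series held 9 libraries of mycelial RNA, with 3 for each of 3 strains. These were the wild type 114-2, a strain labelled as a CrzA deletion, and a strain labelled as a CrzA recover strain, called the recovery strain here. Mycelium was grown for 24 h at 30 °C on starch, then moved to fresh medium with 2% starch and harvested after 18 h. The source labels name glucose and the medium labels starch, and this conflict was not settled. No label gives the number of independent transformants behind either modified strain or the site at which crzA was put back. Separate cultures are not stated for the replicates either, so p-values here reflect library-to-library spread that may be only technical.

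CrzA is a fungal transcription factor with zinc fingers. When calcium rises in the cell, the phosphatase calcineurin removes phosphate groups from it, and it enters the nucleus and acts on genes of ion balance, the cell wall and stress. Putting a deleted gene back is the usual control in fungal genetics: a change that is due to the loss of the gene should be absent once the gene is back. The 49 genes are those outside the excluded stretches that met the conditions on fold and order in both strains. They are only a part of the 138 genes that met the fold conditions. In some of the 49, such as PDE_03623, the recovery strain lay much nearer the wild type than the deletion strain did.

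Genes appear by locus number, because the file gives no names and the reference table, made for strain HP7-1, shares 0 locus tags with it. What the members encode, and the level of crzA itself in each library, were not analysed here. The values used here thus give no check that crzA was absent in one strain and present in the other. Summed FPKM ranged from 973798 to 1063502 per library. In many members wild-type replicate 2 stood apart from wild-type replicates 1 and 3. In some, such as PDE_03922 and PDE_05898, deletion replicate 2 stood apart from the other deletion libraries. Counts that rest on these libraries are given with and without them.

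**Figure D1:**
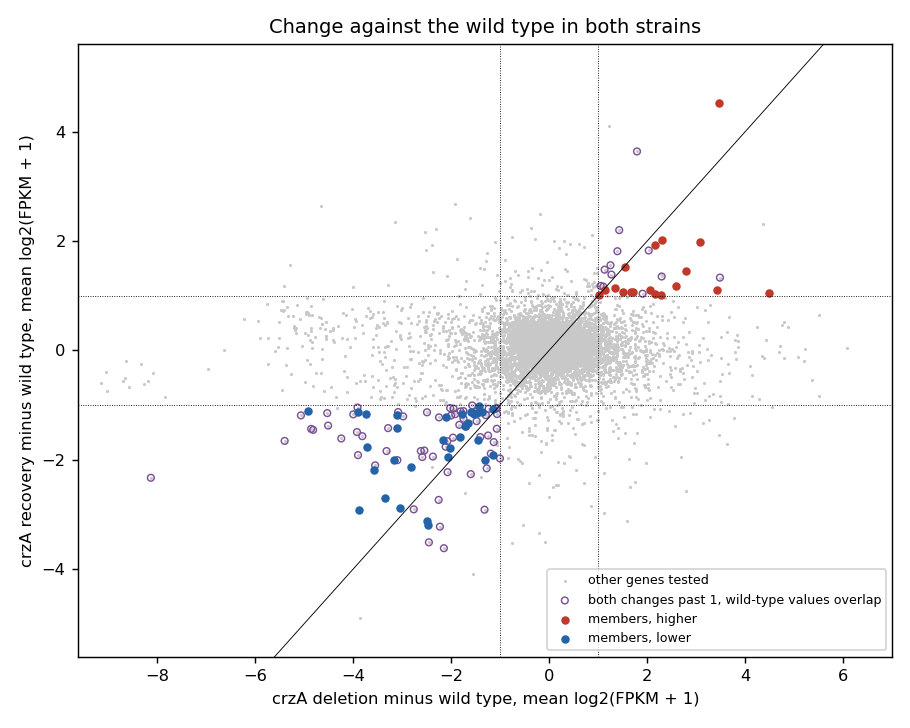
Each point is a gene, placed by its change in mean log2(FPKM + 1) in the deletion strain (x axis) and the recovery strain (y axis) against the wild type. Dotted lines mark changes of 1 and -1 and the solid line equal changes; the 18 higher (red) and 31 lower (blue) members lie past both limits by the rule, and open circles are the 77 genes that met the fold conditions but not the order.

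The change shared by both strains was mostly small. Taken in each member as the smaller in size of its deletion and recovery changes, it had a median of 1.22 log2 units. Over the higher members the change in the recovery strain ran from 1.00 to 4.53 on the log2 scale, with a median of 1.10. The lower members ran from -3.18 to -1.02, with a median of -1.58. In 23 of the 49 the size of the recovery change was under 1.2, close to the limit that admitted them. In 10 members, 2 higher and 8 lower, both strains were at least 2 log2 units from the wild type. These changes chose the members and are given as a description. Over the 9099 genes tested, the median change was 0.06 in the deletion strain and 0.09 in the recovery strain.

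Mean FPKM over the 9 libraries had a median of 25.3 in the members and 31.0 in the tested genes. It ran from 1.57 to 3653 over the members, and 10 of them had a mean under 5 FPKM. As a share of summed FPKM, the 31 lower members took 1.52%, 0.329% and 1.49% in wild-type replicates 1, 2 and 3. They took 0.148% to 0.168% in the deletion libraries and 0.214% to 0.243% in the recovery libraries. The 18 higher members took 0.0334%, 0.0636% and 0.0370% in wild-type replicates 1, 2 and 3. Their share was 0.209% to 0.299% in the deletion strain and 0.121% to 0.138% in the recovery strain. Both shares of wild-type replicate 2 lay between those of the other wild-type libraries and those of the other strains.

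PDE_07655 had the largest shared increase. Its level was 6.62, 17.0 and 1.77 FPKM in wild-type replicates 1, 2 and 3. In the deletion strain it was 78.6, 68.85 and 90.7 FPKM, and in the recovery strain 144, 150.1 and 212 FPKM. Both modified strains lay far above the highest wild-type value, and every recovery value lay above every deletion value. The changes in mean log2(FPKM + 1) were 3.46 in the deletion strain and 4.53 in the recovery strain. Its neighbour by number, PDE_07656, stood at 6.25, 9.53 and 5.35 FPKM in the wild type. It reached 33.6, 42.9 and 37.0 FPKM in the deletion strain and 31.6, 34.9 and 26.9 FPKM in the recovery strain. Here the deletion and recovery values interleaved, with log2 changes of 2.30 and 2.02 against the wild type.

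PDE_01362 was higher to a similar extent in both strains. It went from 32.4, 65.1 and 42.8 FPKM in the wild type to 146, 256 and 227 in the deletion strain and 194, 177 and 153 in the recovery strain. All 6 values were more than 2-fold above the highest wild-type value, which was that of replicate 2. PDE_07871 had a narrower margin, with 29.8, 73.8 and 40.0 FPKM in the wild type. It stood at 85.0, 233 and 116 FPKM in the deletion strain and 139, 138 and 113 in the recovery strain. The lowest deletion value of PDE_07871 lay just above that of wild-type replicate 2.

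PDE_03922 was very low in the wild-type libraries, at 0.94, 3.31 and 0.84 FPKM. The deletion libraries held 39.7, 5.56 and 33.1 FPKM, and the recovery libraries 8.83, 14.65 and 5.16. Deletion replicate 2 was thus far from its own strain and within the range of the recovery strain. PDE_06813 was the most abundant of the higher members. Its level was 135, 331 and 179 FPKM in the wild-type libraries, 1094, 1555 and 1572 in the deletion strain, and 541, 647 and 474 in the recovery strain. The recovery strain lay between the others without overlap, with a log2 change of 1.46 where the deletion strain had 2.79.

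Among the lower members, PDE_07566 had the widest gap between the wild type and the rest. It stood at 22.7, 10.8 and 25.9 FPKM in wild-type replicates 1, 2 and 3. The deletion strain had 1.35, 1.14 and 1.62 FPKM and the recovery strain 1.64, 1.45 and 1.92. The lowest wild-type value and the highest other value were 2.01 log2 units apart, and the changes were -3.05 in the deletion strain and -2.88 in the recovery strain. PDE_04899 gave 52.05, 15 and 59.5 FPKM in the wild type. It gave 3.22, 1.83 and 3.04 FPKM in the deletion strain and 4.75, 3.56 and 6.11 in the recovery strain. Again wild-type replicate 2 was the lowest of its strain, yet more than 2-fold above all 6 other libraries.

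PDE_00144 showed the same order with a larger spread in the wild-type libraries, at 267, 42.3 and 310.2 FPKM. Its values were 10.9, 7.43 and 10.3 FPKM in the deletion strain and 16.3, 17.4 and 25.6 in the recovery strain. PDE_09699 was 286, 62.15 and 326 FPKM in the wild-type libraries, 50.8, 16.03 and 36.4 in the deletion strain, and 15.4, 18.2 and 27.3 in the recovery strain. In PDE_09699 the recovery strain was on average the farther of both from the wild type, with log2 changes of -3.13 against -2.50. PDE_04154 was 477, 91.3 and 430.4 FPKM in the wild type, against 15.5, 29.6 and 21.8 in the deletion strain and 53.0, 50.2 and 71.2 in the recovery strain. In each of these 3 genes the value of wild-type replicate 2 was several times below those of replicates 1 and 3.

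The most abundant member was PDE_07202, at 12042, 1927 and 11622 FPKM in wild-type replicates 1, 2 and 3. It stood at 948, 747 and 1105 FPKM in the deletion strain and 1495, 1756 and 1239 in the recovery strain. Wild-type replicate 2 was 0.13 log2 units above the highest recovery library, so this gene's place among the members rested on a narrow margin. PDE_07202 made up most of the lower members' share of summed FPKM. Without it, their share was 0.293% ± 0.127 in the wild type (SD, n = 3). It was 0.0667% ± 0.00772 in the deletion strain and 0.0842% ± 0.00954 in the recovery strain (SD, n = 3 each).

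**Figure D2:**
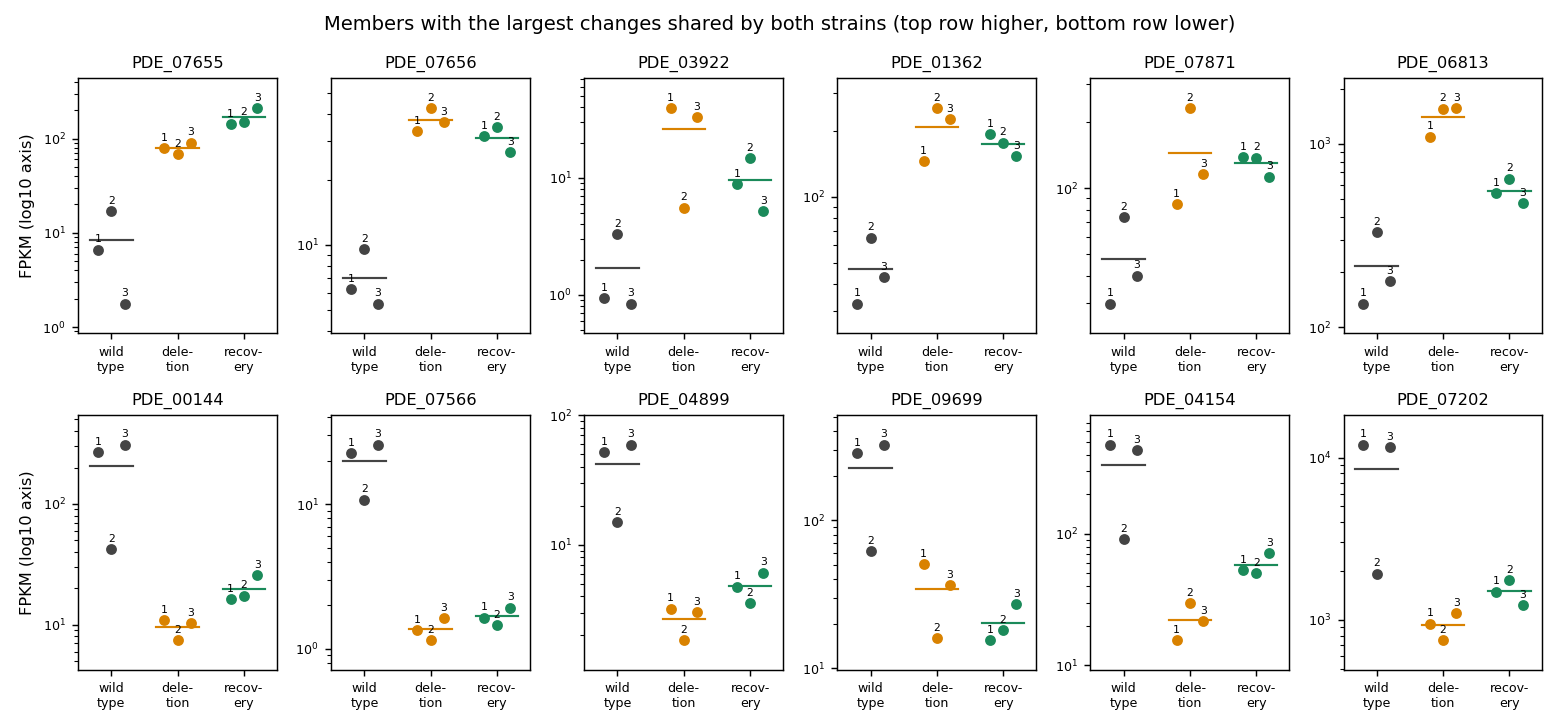
FPKM in each library on a log10 axis for the 6 higher members (top row) and 6 lower members (bottom row) with the largest change shared by both strains among those averaging at least 5 FPKM; points are libraries numbered by replicate and bars are strain means over 3 libraries. In all 12 panels, wild-type replicate 2 is the wild-type library nearest the modified strains, from 9.53 FPKM beside 6.25 and 5.35 in PDE_07656 to 1927 beside 12042 and 11622 in PDE_07202.

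The remaining members are given as examples chosen after their values were seen. PDE_08243 was among the most even, with 38.3, 23.6 and 37.85 FPKM in the wild-type libraries, 9.25, 5.90 and 6.41 in the deletion strain and 8.47, 6.99 and 7.55 in the recovery strain. PDE_07334 had almost identical wild-type values, at 17.8, 17.8 and 17.7 FPKM. It stood at 74.8, 36.0 and 80.85 FPKM in the deletion strain and 43.5, 37.45 and 34.4 in the recovery strain. In PDE_09616 the spread lay in the modified strains. Its values were 264, 301 and 346 FPKM in the wild-type libraries, 66.35, 228 and 85.5 in the deletion strain and 67.3, 80.75 and 164 in the recovery strain.

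Several lower members sank close to the lowest value the file can show. PDE_06415 stood at 14.3, 1.94 and 23.4 FPKM in the wild-type libraries, 0.70, 1.46 and 0.57 in the deletion strain and 0.11, 0.11 and 0.19 in the recovery strain. PDE_08689 stood at 3.32, 5.54 and 3.54 FPKM in the wild type, with 0.20, 0 and 0.21 in the deletion strain and 0.84, 0.63 and 0.42 in the recovery strain. PDE_08353 stood at 4.44, 2.19 and 4.17 FPKM in the wild type and at 0, 0 and 0.14 in the deletion strain. Its recovery values were spread, at 0.14, 1.12 and 1.96 FPKM, the last close to wild-type replicate 2. Values this low rest on few reads, and their number is not known.

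The position of wild-type replicate 2 in the members is given as a description. The rule used it through the strain mean and the order. Contrasts with all tested genes below thus come from values that chose the members, and nothing is read from them. Wild-type replicate 2 was the wild-type library nearest the mean of the other 6 libraries in 39 of 49 members (79.6%). Over all genes tested it was the nearest in 46.9%. In the lower members it lay below the mean of replicates 1 and 3 by a median log2 difference of -1.09, and in the higher members it lay 0.73 above it. The wild-type range exceeded 1 log2 unit in 28 of the 49 members, compared with 12.5% of tested genes. In the deletion strain 12 of 49 members had such a range, beside 18.8% of tested genes. In the recovery strain 6 of 49 did, beside 2.07%. Of the 77 genes that met the fold conditions and failed the order, 73 met the order once wild-type replicate 2 was left out. It was also met by 18 without recovery replicate 3 alone and by 10 without deletion replicate 2 alone, and these counts overlap.

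Set against wild-type replicate 2 alone, 21 of the 49 members were at least 1 log2 unit away in the same direction in both strains. These were 8 higher and 13 lower members. PDE_07655 kept 2.15 in the deletion strain and 3.22 in the recovery strain on that footing, and PDE_07566 kept -2.32 and -2.14. PDE_07656 kept 1.88 and 1.60, and PDE_04899 kept -2.14 and -1.49. PDE_07202, PDE_04154, PDE_09699, PDE_07871 and PDE_06813 were not among the 21. Replicate 2 was not always the nearest wild-type library: replicate 1 was in 9 of the 49 and replicate 3 in 1. In PDE_01529, for example, the recovery strain was 1.78 above replicate 2 and 1.15 above the wild-type mean. The count of 21 reuses the values that chose the members, without a share over all genes, and nothing is read from it. Applied without wild-type replicate 2, the rule kept 15 of the 18 higher and 30 of the 31 lower members and admitted 76 higher and 224 lower genes in all.

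**Figure D3:**
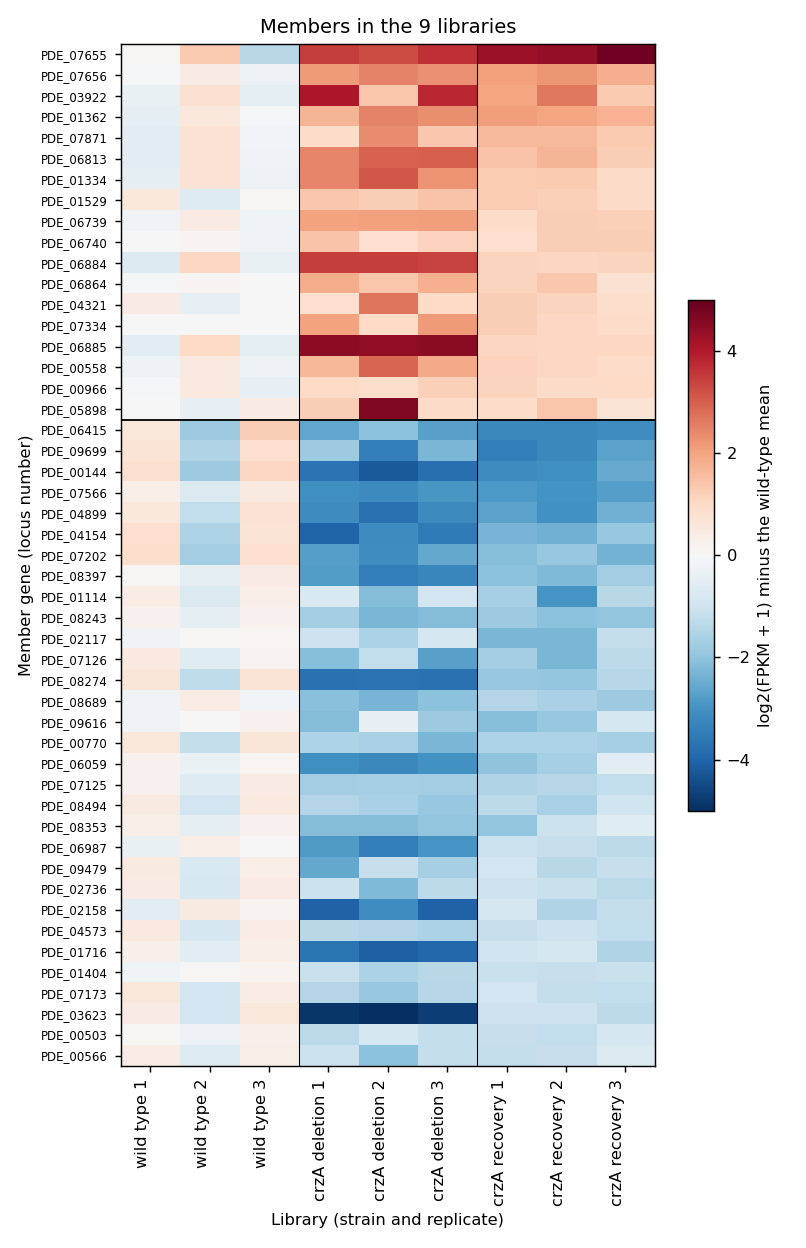
Log2(FPKM + 1) minus the wild-type mean for the 49 members (rows) in the 9 libraries (columns), with the 18 higher members above the line and the 31 lower members below. Wild-type replicate 2 is tinted toward the modified strains in most rows, and the deletion columns are deeper in colour than the recovery columns in rows such as PDE_06885 and PDE_03623.

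The comparisons against the wild type were the ones that chose the members, so their calls are a description. limma was fitted to all 9 libraries and 9099 genes, with calls at a Benjamini-Hochberg adjusted p under 0.05. All 49 members passed the filter on low values, which asks for 1 FPKM in 3 libraries and which a gene can pass through the strain where it is high. In deletion against wild type, 47 of 49 members were called, and 26.1% of all tested genes were. In recovery against wild type, 17 of 49 were called, 6 higher and 11 lower, and 1.57% of all tested genes were. Both comparisons share the wild-type libraries. Without wild-type replicate 2, 42 members were called in recovery against wild type, and 7.50% of all tested genes. Leaving out deletion replicate 2, whose scatter adds to the error estimate of every comparison, gave 29 members and 4.66% of all tested genes. Without both of these libraries all 49 members were called, and 27.9% of all tested genes. These counts use the values that chose the members, and nothing is read from them.

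Deletion against recovery asks whether a member stood at one level in both strains or lay nearer the wild type in one of them. The rule set no limit on this difference, but it used the same libraries. A member whose recovery change was close to the limit of 1 could hardly have its deletion strain nearer the wild type, since the same limit held for both. Of 49 members 13 were called, 26.5%, where 31.5% of all tested genes were called. The 6 members called higher in the deletion strain compare with 15.4% of all tested genes, and the 7 called lower with 16.1%. These were 12.2% and 14.3% of all 49 members. The 6 were all among the 18 higher members and the 7 all among the 31 lower ones, so these shares are not read against the background. The deletion strain was the farther from the wild type in the 13, and in 9 of them the recovery change was under 1.2 in size, so their side was largely set by the selection and nothing is read from it. Without both libraries that stood apart, 11 members were called higher in the deletion strain, with 29.6% of all tested genes, and 11 lower, with 30.9%. Every deletion library lay above every recovery library in 8 of 49 members (16.3%) and in 24.4% of all tested genes. Every deletion library lay below every recovery library in 16 members (32.7%) and in 25.0% of all tested genes. The median difference (deletion minus recovery) was 0.62 in the higher members and -0.42 in the lower ones, against -0.02 over all tested genes. The signs of the member medians were also largely set by the selection, and nothing is read from them.

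In these 13 members the mean of the recovery strain lay between those of the deletion strain and the wild type, and by the rule at least 1 log2 unit from the wild type. PDE_03623 had the largest difference. It stood at 112, 42.7 and 124 FPKM in the wild-type libraries and at 1.90, 1.43 and 2.23 in the deletion strain. The recovery strain had 40.9, 40.7 and 33.85 FPKM, just under wild-type replicate 2. Deletion minus recovery was -3.79 ± 0.35 on the log2 scale (SE, limma adjusted p = 5.49e-05). The recovery strain kept 22.7% of the log2 distance between the deletion strain and the wild type, the lowest share of the 49 members.

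PDE_06885 mirrored this among the higher members. Its level was 2.71, 9.88 and 2.91 FPKM in the wild-type libraries, 121, 114 and 122 in the deletion strain, and 10.5, 10.0 and 10.1 in the recovery strain. The recovery values were level with wild-type replicate 2, which lay 0.016 log2 units below the lowest of them. The difference between deletion and recovery was 3.42 ± 0.35 (SE, limma adjusted p = 0.000115). PDE_06884, the gene numbered before it, had 3.76, 14.5 and 4.88 FPKM in the wild-type libraries, 82.0, 82.1 and 77.2 in the deletion strain and 15.3, 14.8 and 15.5 in the recovery strain. Its difference was 2.33 ± 0.37 (SE, limma adjusted p = 0.00146).

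PDE_01716 and PDE_02158 had the same order of strains as PDE_03623. PDE_01716 gave 78.8, 44.4 and 80.7 FPKM in the wild-type libraries, 4.25, 2.90 and 3.39 in the deletion strain and 32.1, 34.9 and 22.5 in the recovery strain. Its difference was -2.76 ± 0.26 (SE, limma adjusted p = 6.02e-05). PDE_02158 was listed at 0 in deletion replicates 1 and 3 and at 0.94 FPKM in replicate 2. It stood at 10.2, 21.7 and 17.1 FPKM in the wild-type libraries and 8.41, 4.90 and 6.37 in the recovery strain, a difference of -2.57 ± 0.35 (SE, limma adjusted p = 0.000612). In both genes the recovery strain lay between the other strains with no overlap.

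PDE_08274 had a very even deletion strain, with 8.62, 8.65 and 8.61 FPKM. The wild type had 192, 50.9 and 199 FPKM and the recovery strain 32.6, 31.8 and 46.1, and the difference was -1.95 ± 0.45 (SE, limma adjusted p = 0.0110). PDE_01334 stood at 8.53, 20.9 and 9.87 FPKM in the wild-type libraries, at 70.0, 111 and 61.8 in the deletion strain and at 30.9, 31.4 and 24.5 in the recovery strain. Its difference was 1.42 ± 0.33 (SE, limma adjusted p = 0.0106). PDE_06813 differed by 1.33 ± 0.32 (SE, limma adjusted p = 0.0123), and without recovery replicate 3 it was not called, at 1.23 (limma adjusted p = 0.0503).

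The other 5 called members were PDE_00558, PDE_06739, PDE_06059, PDE_06987 and PDE_08397. PDE_06987 stood at 38.5, 62.1 and 50.95 FPKM in the wild-type libraries, 6.06, 3.55 and 5.49 in the deletion strain and 23.3, 21.6 and 19.5 in the recovery strain. Here wild-type replicate 2 was the highest of its strain. PDE_08397 stood at 70.1, 47.5 and 88.2 FPKM, then 8.72, 5.16 and 6.05, then 15.2, 13.65 and 19.0 in the same order of strains. PDE_06739, PDE_06987 and PDE_08397 were the 3 of the 13 that were also called in recovery against wild type.

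The remaining 36 members were not called between deletion and recovery, which does not show that the levels were equal. The half-width of their 95% intervals had a median of 0.84 log2 units. For PDE_07656 the difference was 0.27, with a 95% interval from -0.19 to 0.74 (limma adjusted p = 0.334). For PDE_07566 it was -0.17, from -0.84 to 0.49 (limma adjusted p = 0.682), and for PDE_01362 it was 0.23, from -0.40 to 0.86 (limma adjusted p = 0.560). In these 3 genes the interval held differences of less than 1 log2 unit, while both strains lay 1.93 log2 units or more from the wild type. For PDE_07202 the interval ran from -2.08 to 0.71 (limma adjusted p = 0.425). The fit pools the spread of all 3 strains, and for this gene the wild type was wide, at 12042, 1927 and 11622 FPKM. Its deletion libraries (747 to 1105 FPKM) all lay below its recovery libraries (1239 to 1756 FPKM).

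PDE_07655 was 1 of 2 higher members with the recovery strain on average above the deletion strain, with a difference of -1.06 ± 0.55 (deletion minus recovery, SE, limma adjusted p = 0.170). It passed the threshold in a fit to the deletion and recovery libraries alone (limma adjusted p = 0.00694). It also passed without wild-type replicate 2 (limma adjusted p = 0.0421) and without wild-type replicate 3 (limma adjusted p = 0.0377). Of the 27 named members, 4 newly passed in the fit to the deletion and recovery libraries alone. PDE_00144 differed by -0.97 (limma adjusted p = 0.278 in the main fit, 0.0174 in that fit). PDE_04154 differed by -1.37 (limma adjusted p = 0.0923 in the main fit, 0.00658 in that fit).

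**Figure D4:**
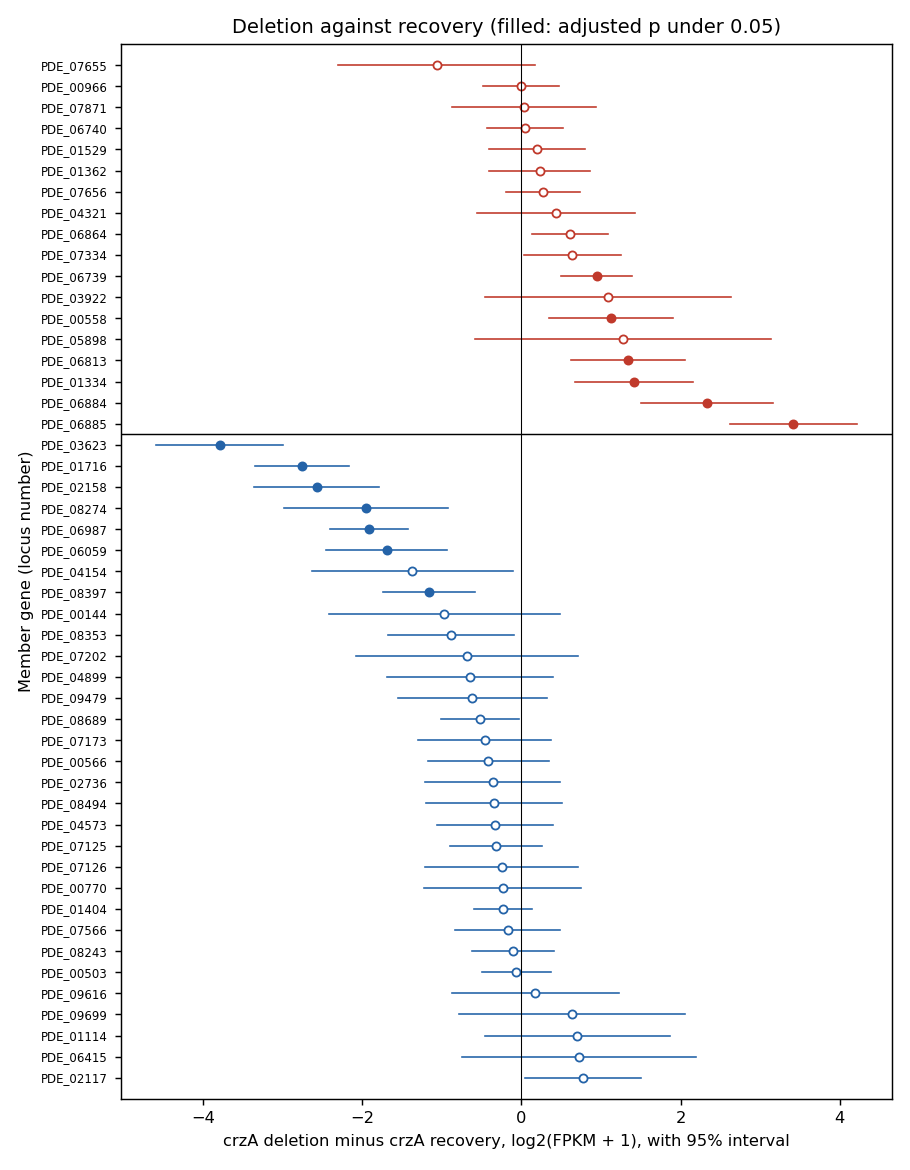
Deletion minus recovery on the log2(FPKM + 1) scale for the 49 members, with 95% intervals from limma; red marks higher and blue lower members, and filled points have an adjusted p under 0.05. The 13 filled points run from 3.42 for PDE_06885 to -3.79 for PDE_03623; 9 of them have a recovery change under 1.2 in size, near the limit of 1, which largely sets their side.

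Members lay scattered along the locus numbers, from PDE_00144 to PDE_09699. Of 49, 8 lay within 3 numbers of another member of the same direction, and they formed 4 pairs of adjacent numbers. Locus numbers give an order of genes, and coordinates were not used here. Among the 24 genes within 3 numbers of the pairs, 0 met the fold conditions in both strains, where 138 of all 9860 genes did. A member of the same direction that near would have been joined to the pair. The count was thus partly set by how pairs were formed, and nothing is read from it.

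Genes numbered beside the pair PDE_07655 and PDE_07656 were not measured with the same change. PDE_07654 had log2 changes of -0.40 in the deletion strain and 0.22 in the recovery strain. PDE_07657 had 0.07 and -0.13, but it held only 0.32 to 1.52 FPKM and failed the filter on low values. A change there could hardly show. The gene after it, PDE_07658, had -0.74 and 0.05. PDE_07125 and PDE_07126 formed the lower pair. PDE_07125 stood at 26.5, 14.1 and 30.2 FPKM in the wild-type libraries, 6.06, 6.40 and 6.09 in the deletion strain and 7.29, 7.66 and 9.05 in the recovery strain. PDE_07126 stood at 18.8, 8.36 and 14.6 FPKM, then 2.30, 4.99 and 1.18, then 3.34, 1.89 and 4.73 in the same order of strains. Both strains overlapped in PDE_07126. The next gene, PDE_07127, had smaller changes of the same sign, -0.94 and -0.70, while PDE_07124 on the other side had 0.03 and 0.06.

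Around the pair PDE_06884 and PDE_06885 the changes were mixed. PDE_06883, the gene before it, had log2 changes of 0.12 in the deletion strain and 0.65 in the recovery strain. PDE_06882 had a log2 change of -4.85 in the deletion strain and 0.35 in the recovery strain, and PDE_06887 had 1.69 and 0.37. In the pair PDE_06739 and PDE_06740, only PDE_06740 was low in every library. PDE_06739 stood at 3.78, 6.28 and 3.66 FPKM in the wild-type libraries, 20.9, 21.3 and 22.5 in the deletion strain and 9.25, 11.75 and 11.4 in the recovery strain. PDE_06740 held at most 3.21 FPKM in any library, and 0.60, 0.75 and 0.40 in the wild type. Both genes numbered after this pair were higher in the recovery strain and not in the deletion strain. PDE_06742 stood at 0.56, 0 and 0.38 FPKM in the wild type, at most 0.09 in the deletion strain, and 4.28, 3.39 and 5.47 in the recovery strain.

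**Figure D5:**
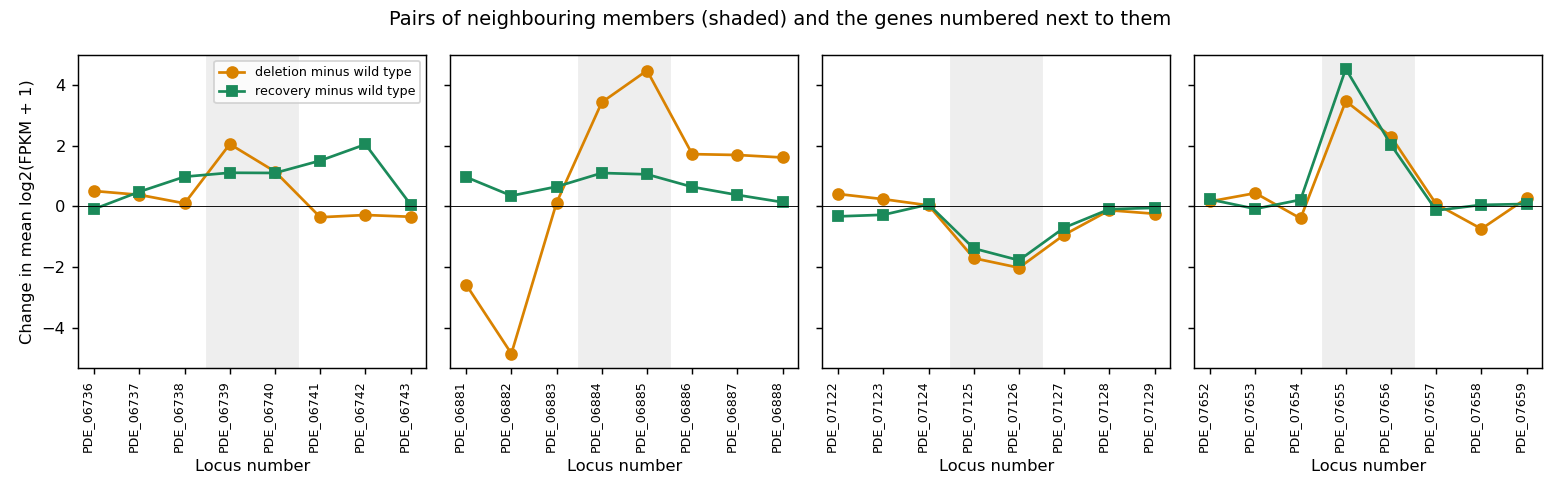
Change in mean log2(FPKM + 1) against the wild type in the deletion strain (orange) and the recovery strain (green) for the 4 pairs of adjacent members (shaded) and the 3 genes numbered before and after each. The curves run together at PDE_07125 to PDE_07127 and at PDE_07656, and part from each other around PDE_06884 and after PDE_06740.

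The limits of the rule had genes close by on both sides. Just inside were PDE_00966, with changes of 1.01 in the deletion strain and 1.02 in the recovery strain, and PDE_05898, with 2.28 and 1.00. Just outside were PDE_08042, with 0.98 and 1.42, and PDE_05833, with 1.19 and 0.99. On the lower side PDE_02117 (-1.14 and -1.91) and PDE_00566 (-1.44 and -1.02) were inside. PDE_09932 (-0.89 and -1.10) and PDE_06303 (-1.82 and -0.98) were outside. PDE_05898 rested on 1 library for the size of its deletion change: its deletion values were 9.87, 112 and 7.96 FPKM, with the high one in deletion replicate 2.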

How the data were processed

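Per the file headers, the authors deposited FPKM values for 9860 genes in 9 libraries, given to 2 decimals. Per the labels' protocols, cDNA was cut with NlaIII and MmeI into short tags, for which division by gene length is unusual, so levels of different genes may not compare. Aligner, counting method, build and gene models were not given in the sources used here, and read totals are unknown. In 69 of 1392 eligible low genes all values were whole multiples of the lowest one within 0.15. In these genes the step between values differed between libraries by ratios of 0.970 to 1.02. Keeping only such genes largely sets the ratios near each other, and the values cannot show a depth lower by a whole factor. Nothing is read from the ratios about depth. No counting interval was computed.

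Values were taken as log2(FPKM + 1). The 9099 genes with at least 1 FPKM in at least 3 libraries were tested with limma 3.58.1 in R 4.3.3, with 1 mean per strain over all 9 libraries, trend and robust options, two-sided, and Benjamini-Hochberg adjustment over all genes tested. Alternatives kept this gene set unless they changed the filter. Other steps used pandas 2.3.3 and numpy 2.4.6 under Python 3.11.15, and figures matplotlib 3.10.9. The rule for named genes took, per direction, the 6 members of at least 5 FPKM on average with the largest smaller change, the 4 called members with the largest difference between deletion and recovery, the most abundant member, pairs within 3 numbers, and those at the limits. The members, lists and tests were chosen with earlier results of these data known.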

Additional observations from a re-analysis of the deposited data

How the results depend on the processing

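Reads per library are unknown, so what depth limits was not estimated. The rule gave 18 higher and 31 lower members. It gave 32 and 49 with a pseudocount of 0.1 and 6 and 20 with one of 5, which follows from how the pseudocount scales low genes. Median centring gave 10 higher and 44 lower, 29 of the main 31 lower members stayed under quantile normalization (15 and 41 in all), and the cause was not tested. Without wild-type replicate 2 and deletion replicate 2 together it gave 90 and 211. Leaving out 1 library gave 15 to 76 higher and 26 to 224 lower. The highest counts came without wild-type replicate 2. Without deletion replicate 2 there were 33 higher, and without recovery replicate 3 there were 69 lower.

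In deletion against recovery, 6 members were called higher and 7 lower. Leaving out 1 library gave 5 to 10 and 7 to 12. The 10 came without deletion replicate 2 and the 12 without wild-type replicate 2. Without both there were 11 and 11, a fit to these strains alone gave 11 lower, and an adjusted p under 0.01 left 3 higher. The settings for calls against the wild type were added after seeing the data. In recovery against wild type the 17 calls became 6 to 42 without 1 library, 49 without both, and 6 at an adjusted p under 0.01. Calls in deletion against wild type stayed between 33 and 48 of 49.

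Of 566 values of the 27 named members in deletion against recovery under other settings, 531 kept their direction and side of the threshold, 18 newly passed, 4 no longer passed and 13 changed sign. The sign changes belonged to 4 members that were not called. PDE_00966 had 0.0745 after rescaling to TPM, 0.0603 after median centring, 0.0680 without both libraries and -0.0898 to 0.0680 without 1 library. PDE_07871 had -0.0174 after quantile normalization, -0.38 without both and -0.38 to 0.34 without 1 library. PDE_06740 had -0.0918 to 0.19 and PDE_07126 -0.63 to 0.10 without 1 library. The shared replicate numbers were not used as pairs. Deviations from the strain means correlated over 0.1 in 3 of 9 possible pairs (lowest -0.11, highest 0.22). Libraries of different numbers were not correlated for comparison, so pairing was not tested. With the replicate number as a block, 7 members were called higher and 7 lower in deletion against recovery.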

Other observations

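A further 5 genes met the fold and order conditions but lay in the excluded stretches of locus numbers. PDE_06096 stood at 14.2, 12.1 and 11.3 FPKM in the wild-type libraries, 358, 243 and 238 in the deletion strain and 70.0, 86.1 and 47.1 in the recovery strain. Its wild-type replicates were even, and its log2 changes were 4.36 and 2.31. PDE_10012 stood at 5.19, 14.8 and 9.25 FPKM in the wild-type libraries, 59.6, 39.7 and 46.3 in the deletion strain and 26.55, 31.0 and 19.7 in the recovery strain. PDE_03292 was lower in the recovery strain than in the deletion strain, at 234, 179 and 339 FPKM in the wild-type libraries, 107, 60.0 and 85.1 in the deletion strain and 12.9, 11.8 and 15.4 in the recovery strain. PDE_03279 and PDE_01219 were also farther from the wild type in the recovery strain, with log2 changes of -4.89 against -3.86 and -1.73 against -1.06. These 5 genes were chosen by the same values as the members, and no test is given.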
